A study of Mus musculus with 4 samples.

Results

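The Bcl2 family of survival and death genes was followed through 4 bulk RNA-seq libraries of murine 4T1 cells. The genes were chosen by name, as the rows of the deposited expression table whose symbol was Bcl2, Bcl2l1, Mcl1, Bak1, Bbc3, Bcl2l11, Bid, Bad, Bmf or Pmaip1. They were 10 of the 49585 genes in the table. Of the members, 9 had an FPKM (fragments normalized to exon length and library total) of at least 1 in at least 1 library, a limit that 12669 genes passed in all, here called expressed genes. Pmaip1 was the member that did not pass it.

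4T1 is a transplantable mouse mammary cancer line used as a model of triple-negative breast cancer (TNBC). From it, single cells had been grown into clones, and 1 clone of high metastatic capacity (4T1-HM) and 1 of low capacity (4T1-LM) were picked by behavior in culture and in mice. Each clone was grown for 48 h with 50 µM of deferasirox (DFX), an oral iron chelator, dissolved in DMSO, or with DMSO alone, giving the libraries HM_DFX, HM_Ctrl, LM_DFX and LM_Ctrl. Each condition was 1 library, so no difference below has a replicate check and no test was made. The clones stand for themselves only, because a difference between them cannot be told apart from one between any 2 clones of single cells.

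Proteins of this family decide whether the outer membrane of the mitochondrion stays closed. BCL2, BCL-XL (from Bcl2l1) and MCL1 hold it closed, BAK and BAX form the pores that let cytochrome c out, and the BH3-only proteins (PUMA from Bbc3, BIM from Bcl2l11, NOXA from Pmaip1, BID, BAD and BMF) bind the guardians or push the pore formers. Many of these genes are switched at the level of transcription by stress, by loss of growth factor signals and by p53, and the proteins are also set by phosphorylation, cleavage and turnover, which RNA does not show.

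The recovered depth was 14363065 fragments in HM_DFX, 16745607 in HM_Ctrl, 15731519 in LM_Ctrl and 21883853 in LM_DFX, worked back from the FPKM values. All 6 epithelial markers (Epcam, Cdh1, Krt7, Krt8, Krt18 and Krt19) were expressed in these mammary cancer cells, while no gene of 5 leukocyte and 4 endothelial markers reached an FPKM of 1, and Cd3e and Adgre1 were listed at 0 in every library. The epithelial markers moved with the drug: with DFX, 5 of 6 were past 2-fold lower in HM (against 12.4% of all expressed genes), and 2 of 6 were lower (against 8.72%) and 1 higher (against 7.09%) in LM. Krt8, for example, went from 593 to 134 in HM and from 963 to 339 in LM, in FPKM without and with DFX. What these shifts have to do with the members was not tested. In bulk RNA, fewer cells expressing a gene and less of its RNA in each cell cannot be told apart.

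Promoters are shown for the 3 members on which the results below turn most: Bbc3 and Bcl2l11, BH3-only members with higher values under DFX in both clones, and Bcl2l1, whose DFX response differed most between the clones. FOXO factors are known to act on Bbc3 and Bcl2l11, and their core letters TGTTTAC, searched on both strands, stand in capitals in these. In the Bcl2l1 promoter the capitals mark GCGTG read on the other strand, letters that also form the core of a hypoxia response element. GCGTG also stands, unmarked, in the printed Bbc3 and Bcl2l11 stretches. Each stretch was picked from the windows of its gene that held the marked letters, so their presence there was fixed in advance. Each line holds the 250 bases before a RefSeq start site, read 5′ to 3′ along the gene, in build GRCm38.p6. They lie at chr7:16310011-16310260 (+) for Bbc3, chr2:128125788-128126037 (+) for Bcl2l11 and chr2:152831729-152831978 (−) for Bcl2l1. The Bbc3 stretch lies within the span of the deposited gene model, and the others lie just outside theirs.
Bbc3: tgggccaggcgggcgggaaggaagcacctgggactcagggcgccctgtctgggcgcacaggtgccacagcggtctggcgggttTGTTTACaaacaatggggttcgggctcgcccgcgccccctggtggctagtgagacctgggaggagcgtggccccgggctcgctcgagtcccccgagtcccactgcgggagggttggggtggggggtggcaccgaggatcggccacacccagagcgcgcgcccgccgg
Bcl2l11: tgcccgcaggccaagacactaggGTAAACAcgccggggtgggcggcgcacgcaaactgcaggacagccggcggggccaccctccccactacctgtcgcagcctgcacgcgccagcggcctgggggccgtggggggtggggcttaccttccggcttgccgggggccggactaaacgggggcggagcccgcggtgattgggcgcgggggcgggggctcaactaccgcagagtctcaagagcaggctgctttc
Bcl2l1: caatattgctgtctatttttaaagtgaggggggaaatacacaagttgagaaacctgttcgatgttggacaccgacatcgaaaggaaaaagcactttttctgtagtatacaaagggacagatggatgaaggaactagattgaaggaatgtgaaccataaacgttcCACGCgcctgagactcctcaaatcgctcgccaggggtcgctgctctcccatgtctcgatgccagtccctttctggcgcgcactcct

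RefSeq windows of 300 bases, from 250 before to 50 after a start, were matched for 9 of the 10 members, which had 17 such windows among 32851 in all. TGTTTAC was found in 1 window of Bbc3, starting 167 bases before the start site, and in 1 window of Bcl2l11, on the other strand, starting 227 bases before it. Over all windows, 3.65% held these letters. GCGTG was in 8 windows from 4 members (Bad, Bbc3, Bcl2l1 and Bcl2l11), against 32.4% of all windows, and the sister letters ACGTG were in 2 windows (Bbc3 and Bmf), against 19.6%. In the printed Bcl2l1 promoter the match began 86 bases before the start. The letters TGATGNAA, the core bound by CHOP and ATF4 together, were in no member window and in 3.97% of all windows. These are matches of letters only, and binding was not measured.

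**Figure D1:**
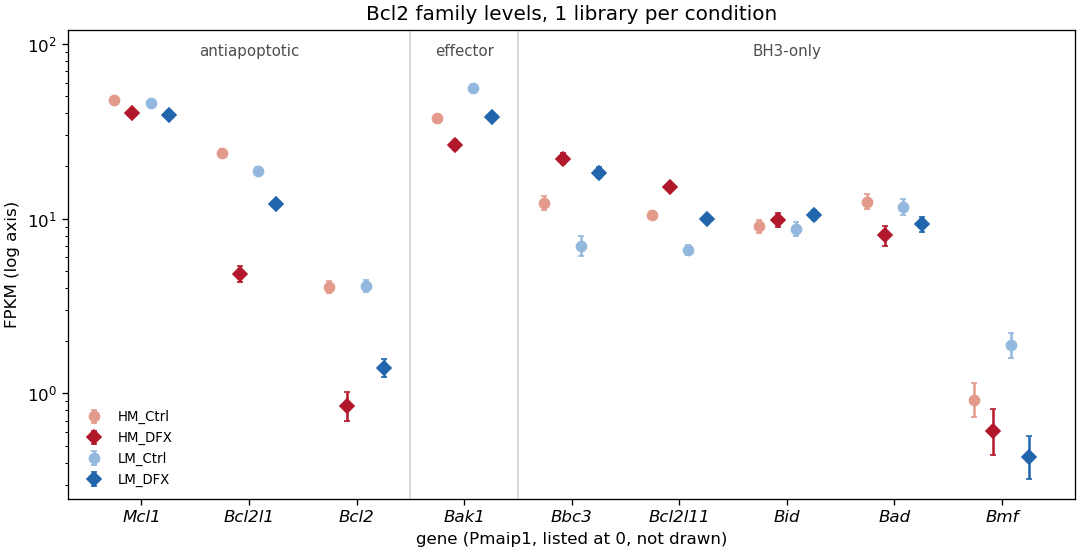
FPKM of 9 members (log axis) in each of the 4 libraries, circles for DMSO and diamonds for DFX, red for HM and blue for LM. Bars are exact 95% intervals for counting error only, with 1 library per condition, and Bcl2l1 in HM_DFX lies well below the other 3 libraries while Mcl1 stays between 38.9 and 47.6.

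Of the antiapoptotic members, Mcl1 was steady, Bcl2 was lower with DFX in both clones and Bcl2l1 mainly in HM. Mcl1 (chr3:95658788-95663176, plus strand, coordinates in mm10 as in the table), a guardian protein known for its short life, was the most abundant member in HM_Ctrl, HM_DFX and LM_DFX. Its FPKM in HM was 47.6 without and 40.4 with DFX, and in LM 46.1 without and 38.9 with DFX, from 1982 to 2911 fragments. Both DFX libraries were slightly below both controls. As a share of the fragments in each library, the treated value was 1.18-fold lower in HM (95% interval 1.11 to 1.25) and 1.19-fold lower in LM (1.12 to 1.25). These intervals, and those of all folds between 2 libraries below, are exact binomial (Clopper-Pearson) and cover counting error, not the variation between cultures. Mcl1 was among the steadiest transcripts: only 6.41% of expressed genes had a smaller range over the 4 libraries.

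Bcl2l1 (chr2:152780668-152831728, minus strand) gives BCL-XL in its long splice form and a death-promoting protein in its short form, which a value per gene does not separate. The HM clone had an FPKM of 23.8 without DFX and 4.83 with it, and the LM clone 18.7 and 12.1. The DFX-treated HM library was thus the lowest of the 4, and the untreated HM library the highest. In HM cells Bcl2l1 fell under DFX, by 2.09 on the log2 scale of FPKM + 1, the scale of all log2 values here. In fragments this was 1824 against 318, a 4.92-fold lower share of the library (4.36 to 5.56). It was rank 141 from the lowest among the 12669 expressed genes. In LM cells the share was 1.54-fold lower (1.43 to 1.67), a log2 value of −0.58, which did not reach 2-fold.

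Bcl2 (chr1:106538178-106714274, minus strand), the founding survival gene of the family, was about equal in both controls and lower in both treated libraries. Without DFX its FPKM was 4.06 in HM and 4.11 in LM, and with DFX 0.844 in HM and 1.40 in LM. It fell past 2-fold in each clone, with log2 values of −1.46 in HM and −1.09 in LM. In fragments the share was lower with DFX by 4.81-fold in HM (3.92 to 5.94) and by 2.93-fold in LM (2.54 to 3.39). The FPKM + 1 scale understates changes at such low levels. An opposite-strand gene, D630008O14Rik, overlaps 558 exon bases of Bcl2, and its own FPKM did not exceed 0.116.

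Bak1 (chr17:27019810-27029009, minus strand), the pore-forming effector among the members, was the most abundant of the 10 in LM_Ctrl. Untreated HM cells had an FPKM of 37.4 and untreated LM cells 56.1, and DFX-treated HM and LM cells had 26.3 and 38.3. The log2 value was −0.49 for DFX in HM, −0.54 for DFX in LM, −0.57 for HM_Ctrl against LM_Ctrl and −0.53 for HM_DFX against LM_DFX. No comparison reached 2-fold, and HM was below LM by a like amount with and without the drug. Of the 31-base stretches (words) of Bak1 transcripts, 20.4% also occur in the opposite-strand gene Ggnbp1, whose FPKM was between 0.485 and 0.80.

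Among the BH3-only genes, Bbc3, Bcl2l11 and, by less, Bid had higher values with DFX in both clones. Bbc3 (chr7:16308393-16318205, plus strand) codes for PUMA, a potent killer that binds every guardian and is a known p53 target. The FPKM without and with DFX was 12.3 and 22.1 in HM, and 7.0 and 18.4 in LM, so the treated libraries lay above both controls. In LM it rose past 2-fold, by 1.27 on the log2 scale, and in fragments 2.62-fold (2.26 to 3.04). In HM the log2 value was 0.80 and the share 1.8-fold higher (1.59 to 2.03), from 437 to 673 fragments. The HM control started above the LM control, 1.75-fold in fragments (1.49 to 2.07), and the treated clones were nearer to each other, 1.20-fold apart (1.08 to 1.33).

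Bcl2l11 (chr2:128126038-128162547, plus strand) codes for BIM, which links the loss of growth factor signals to the mitochondrion. HM cells had an FPKM of 10.5 and LM cells 6.61 without DFX, and with it these were 15.3 and 10.0, each from at least 835 fragments. HM_DFX was the highest and LM_Ctrl the lowest, while HM_Ctrl and LM_DFX were close. DFX gave a 1.46-fold higher share in HM (1.36 to 1.56) and a 1.51-fold higher share in LM (1.39 to 1.64), both short of 2-fold. HM exceeded LM 1.58-fold without DFX (1.45 to 1.73) and 1.53-fold with it (1.43 to 1.63).

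Bid (chr6:120891930-120916853, minus strand), which caspase-8 cleaves to carry a death receptor signal to mitochondria, had a narrow range, at an FPKM of 9.05 and 9.81 in HM without and with DFX, and of 8.72 and 10.5 in LM. Its fragment share was 1.08-fold higher with DFX in HM (0.957 to 1.23) and 1.20-fold higher in LM (1.07 to 1.35). Only 3.99% of expressed genes had a smaller range. Bad (chr19:6941861-6951898, plus strand), which growth factor kinases keep in check by phosphorylation, had 12.5 and 8.01 in HM without and with DFX, and 11.7 and 9.31 in LM. Both treated libraries were below both controls, with log2 values of −0.58 in HM and −0.30 in LM. Both genes overlap a neighbor on the opposite strand. Bid shares 16.9% of its words with Bcl2l13, and Bad 18.4% with Gpr137, whose FPKM was between 3.12 and 4.49. These shares are from GENCODE M21, where Bad has other coordinates than in the deposited table, so its share is uncertain. How strand was used in counting is not given in the sources used here, so fragments of such pairs cannot be told apart.

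Bmf (chr2:118528757-118549687, minus strand), a BH3-only gene tied to loss of attachment, was the least abundant of the 9 expressed members. In HM its FPKM was 0.921 without DFX (81 fragments) and 0.610 with it (46 fragments), and in LM 1.89 (156 fragments) and 0.435 (50 fragments). LM_Ctrl stood above the other 3 libraries. Bmf counted as expressed only through LM_Ctrl, so lower values in comparisons against that library were favored by this limit. In LM it fell under DFX to just past 2-fold on the FPKM + 1 scale (log2 −1.01), and 4.34-fold in fragments (3.14 to 6.09). With libraries scaled by median ratios the log2 value was −0.97, short of 2-fold. In HM the share was 1.51-fold lower (1.04 to 2.22), and HM_Ctrl was 2.05-fold below LM_Ctrl (1.56 to 2.72).

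Pmaip1 (chr18:66458604-66465550, plus strand), the gene of NOXA, a BH3-only protein that binds MCL1 and is a known target of p53, was listed at 0 in all 4 libraries. A count of 0 allows up to 3 fragments, which for an exon length of 2732 bases would be an FPKM between 0.0502 (LM_DFX) and 0.0765 (HM_DFX). That length is from GENCODE M21, where the gene has other coordinates than in the deposited table. The limit holds only if fragments were counted over these exons, which was not tested, so the zeros of Pmaip1 are uncertain. Only 0.399% of its words occur in other genes. The nearest protein-coding gene before it, Ccbe1, had an FPKM of 10.99 to 29.8, and the nearest after it, Mc4r, was also listed at 0 throughout. None of 10 widely used genes, such as Actb, Tbp and Hprt, was listed at 0. They were not all high: Gapdh had an FPKM of 7.06 to 22.9 and Rpl13a of 24.0 to 43.3. No fold change is given for Pmaip1.

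**Figure D2:**
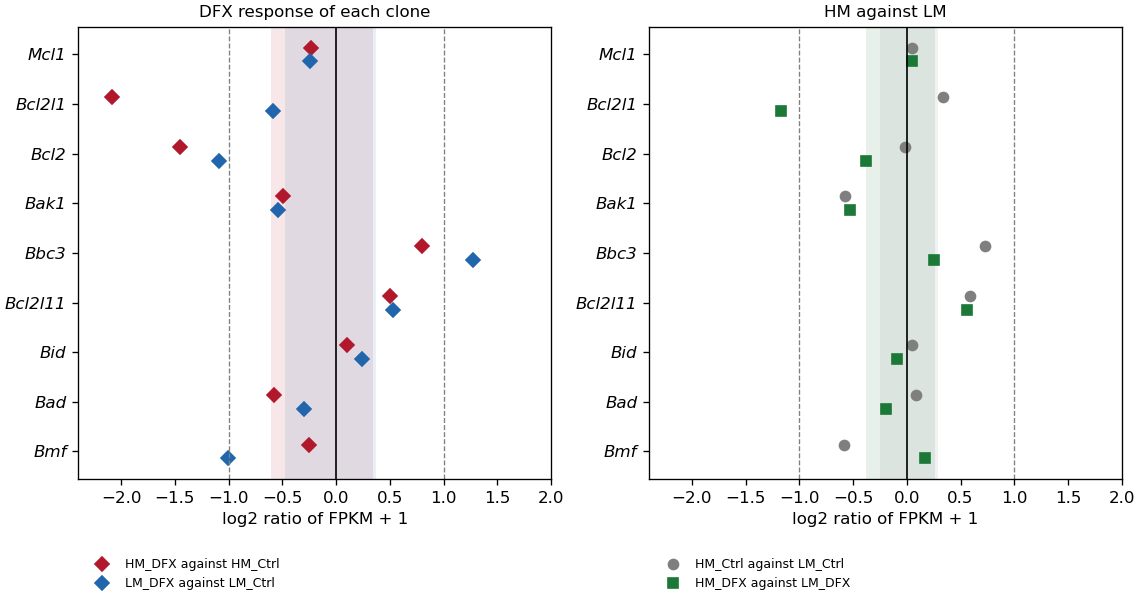
Log2 ratio of FPKM + 1 for 9 members, on the left the DFX response of HM (red) and LM (blue) and on the right HM against LM without DFX (gray circles) and with it (green squares). Shaded bands are the middle 50% of expressed genes in each comparison and dashed lines are 2-fold, and Bcl2l1 in HM (−2.09) lies farthest left.

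The first comparison asked how the clones differed without drug. Between HM_Ctrl and LM_Ctrl, 0 of 9 expressed members were at least 2-fold higher in HM and 0 were lower, where 3.65% of expressed genes were higher and 3.15% lower. The median of the members was 0.05, against 0.01 for all expressed genes. Values above 0.5 belonged to Bbc3 (0.73) and Bcl2l11 (0.59), and values below −0.5 to Bak1 (−0.57) and Bmf (−0.59). Bcl2l1 stood at 0.33, while Bcl2, Mcl1, Bid and Bad lay between −0.02 and 0.09.

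The following pair asked what DFX did in each clone. In HM, 0 of 9 members were at least 2-fold higher with DFX, against 6.93% of expressed genes, and 2 were lower (Bcl2l1 and Bcl2), against 12.4%. The median was −0.25 for the members and −0.10 for all expressed genes. Median-ratio scaling brings the latter to 0 and turns 878 genes higher and 1568 lower into 1118 higher and 1276 lower. On that scale Bcl2l1 was at −1.96 and Bcl2 at −1.37. In LM, 1 member was at least 2-fold higher (Bbc3), against 7.09%, and 2 were lower (Bcl2 and Bmf), against 8.72%. Of these, Bmf counted as expressed only through LM_Ctrl, the library it was compared with. The medians in LM were −0.30 for the members and −0.04 for all expressed genes. For 9 genes these counts are too small to be set apart from such shares.

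**Figure D3:**
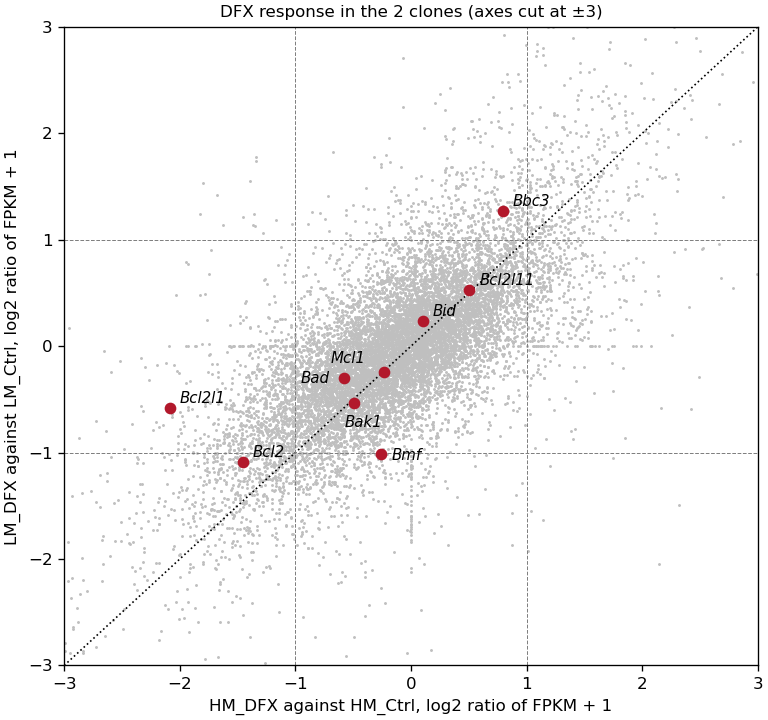
Each point is 1 expressed gene, placed by its DFX response in HM (x axis) and in LM (y axis) as log2 ratios of FPKM + 1, with members in red, 2-fold lines dashed and equal response dotted. Axes end at −3 and 3, and Bcl2l1 lies far left of the dotted line while Mcl1, Bak1 and Bcl2l11 lie near it.

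The last 2 comparisons set the treated clones side by side, and then the 2 responses. Between HM_DFX and LM_DFX, 0 members were at least 2-fold higher in HM (3.31% of expressed genes) and 1 was lower (5.05%), namely Bcl2l1. Its log2 value was −1.17, and the fragment share was 2.51-fold lower in HM (2.21 to 2.85). Subtracting the LM response from the HM response, 0 members had a difference of at least 2-fold upward (3.52% of expressed genes) and 1 downward (5.38%), again Bcl2l1. That difference was −1.50, rank 197 from the lowest of 12669. In fragments it was 3.19-fold (2.77 to 3.68, from the counting SE), a log2 value of −1.67 ± 0.10 (counting SE). The comparisons share libraries, so these counts are not independent of one another.

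For the other members the difference was smaller. On the FPKM + 1 scale it was 0.01 for Mcl1, −0.03 for Bcl2l11, 0.05 for Bak1 and −0.14 for Bid. As log2 ratios of fragments, to which the counting SE applies, these were 0.01 ± 0.06, −0.05 ± 0.08, 0.04 ± 0.08 and −0.15 ± 0.12. Bcl2 (−0.37), Bad (−0.28) and Bbc3 (−0.48) had a lower value in HM than in LM. In fragments these were −0.71 ± 0.18, −0.31 ± 0.16 and −0.55 ± 0.14, a 1.64-fold difference for Bcl2 (1.28 to 2.10). Bmf had the opposite sign, 0.75, and its fragments gave 1.52 ± 0.35, a 2.87-fold difference (1.77 to 4.65). These errors cover counting only, and a difference between 2 cultures of the same clone was not measured.

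**Figure D4:**
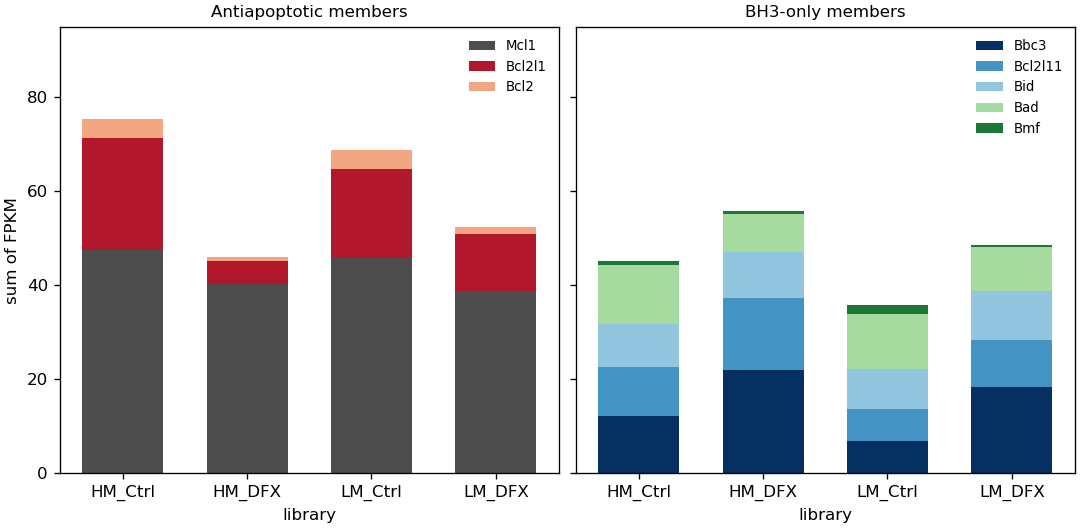
Summed FPKM of the antiapoptotic members (left) and of the BH3-only members (right) in each library, stacked by gene, with both axes from 0. The antiapoptotic bar is shorter and the BH3-only bar taller with DFX in both clones, and Mcl1 fills most of each antiapoptotic bar. Pmaip1, listed at 0, adds nothing to the BH3-only bars.

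FPKM is per length, so members can be summed and ranked within a library. The 3 antiapoptotic genes together had an FPKM in HM of 75.5 ± 1.08 (counting SE) without and 46.0 ± 0.95 with DFX, and in LM of 68.9 ± 1.07 and 52.4 ± 0.805. The BH3-only genes together had 45.2 ± 0.979 and 55.8 ± 1.15 in HM, and 35.9 ± 0.901 and 48.6 ± 0.896 in LM. Pmaip1 entered this sum at 0, and its zeros are uncertain, which the counting SEs here do not cover. The ratio of the first sum to the second was 1.67 without and 0.826 with DFX in HM, and 1.92 and 1.08 in LM, with counting SEs of 0.0241 to 0.0566. It was thus lower with DFX in each clone and lower in HM than in LM under either condition. The ratio is one of RNA and says nothing of protein.

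Within the antiapoptotic sum, DFX-treated cells had more of the sum in Mcl1: 63.1% without and 87.7% with DFX in HM, and 67.0% and 74.2% in LM. Bcl2l1 made up 31.5% and 10.5% in HM, and 27.1% and 23.1% in LM. The ratio of Mcl1 to Bcl2l1 was therefore 2.01 and 8.36 in HM, and 2.47 and 3.21 in LM. Bcl2 was a minor part throughout, from 1.83% to 5.96%. In the BH3-only sum, Bbc3 held 27.2% in HM_Ctrl and 19.5% in LM_Ctrl, and 39.6% in HM_DFX and 37.8% in LM_DFX.

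In HM_Ctrl the order by FPKM was Mcl1, Bak1, Bcl2l1, Bad, Bbc3, Bcl2l11, Bid, Bcl2 and Bmf, and the intervals of Bad (11.3 to 13.8) and Bbc3 (11.2 to 13.5) overlapped. In LM_Ctrl Bak1 led, ahead of Mcl1, and Bbc3 (6.13 to 7.96) and Bcl2l11 (6.17 to 7.07) were not apart. With DFX, Bbc3 came next after Mcl1 and Bak1 in both clones. Bcl2l1 then stood below Bcl2l11, Bid and Bad in HM_DFX, but above all of these in LM_DFX. In LM_DFX the intervals of Mcl1 (37.5 to 40.4) and Bak1 (36.7 to 40.0) overlapped.

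The genes whose profile over the 4 libraries was nearest to that of Bcl2l1 and Bbc3, the members with the largest ranges on the FPKM + 1 log2 scale, were sought among 10766 protein-coding genes by the root mean square difference of centered log2 values. Nearest to Bcl2l1 were Sh2d5 (0.0761), Dok1 (0.0794) and Klk10 (0.101). Dok1, for example, went from 30.1 to 5.85 in HM and from 23.2 to 13.2 in LM, in FPKM. Only 2 genes came within 0.1 of Bcl2l1, whereas 33 came within 0.1 of Bbc3, led by Fam214b (0.0313), Zc3h6 (0.0373) and Ypel5 (0.0479). A profile of 4 values is a thin basis for likeness.

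The rest of the family was read in the same way. Of 5 other antiapoptotic homologues, Bcl2l2 (BCL-W) was the expressed one, with an FPKM of 7.49 without and 3.29 with DFX in HM, and of 7.65 and 6.34 in LM. Its log2 value for DFX in HM, −0.98, was just short of 2-fold. Bcl2a1a, Bcl2a1b and Bcl2a1d were listed at 0 throughout, but they are near-identical copies that share 79.6% to 89.1% of their words, so their zeros are uncertain. Bcl2l10 had 1 fragment in all, in HM_DFX.

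Among the effectors, Bax, the partner of Bak1, stood at 32.7 and 33.5 in HM without and with DFX, and at 35.4 and 39.4 in LM. Bok, another pore-forming relative, fell in both clones: its FPKM went from 26.4 to 6.70 in HM (log2 −1.83) and from 37.2 to 12.0 in LM (log2 −1.55). The 3 effectors thus gave different values, Bok being past 2-fold and Bak1 and Bax not.

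Of 8 other BH3-only and BH3-like genes, 5 were expressed. Bnip3, a mitophagy receptor and known HIF target, was the most abundant with DFX: its FPKM went from 85.3 to 171 in HM and from 28.0 to 205 in LM. It rose past 2-fold in LM (log2 2.83), with a log2 value of 0.99 in HM. Its relative Bnip3l rose in LM (log2 1.49; FPKM 51.3 to 146), and in HM it went from 74.5 to 99.4. Both share words with other genes or pseudogenes, 57.0% for Bnip3 and 23.7% for Bnip3l, so their levels are uncertain. Bik had an FPKM of 0.443 and 0.148 in HM without and with DFX, and of 2.22 and 0.727 in LM. It was past 2-fold lower in HM_Ctrl than in LM_Ctrl (log2 −1.16), but it counted as expressed only through LM_Ctrl. Bcl2l12, which overlaps 2 opposite-strand genes, had an FPKM of 3.42 and 1.41 in HM without and with DFX, and of 4.28 and 1.78 in LM. It was short of 2-fold on the FPKM + 1 scale (log2 −0.87 and −0.92), but 2.42-fold (1.68 to 3.57) and 2.40-fold (1.80 to 3.22) lower in fragments. Bcl2l13 went from 5.09 to 9.19 in HM and from 6.36 to 9.39 in LM, short of 2-fold on either scale, and Hrk, Bcl2l14 and Bcl2l15 did not exceed an FPKM of 0.154.

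**Figure D5:**
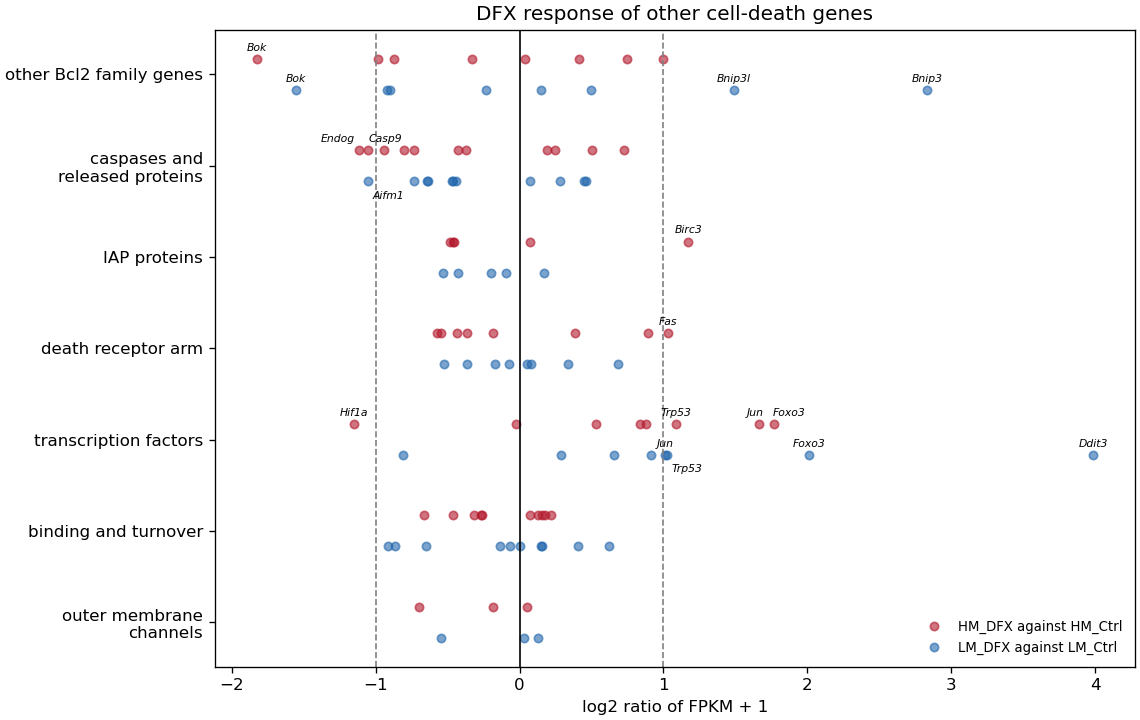
DFX response of the expressed genes in 7 groups of other cell-death genes, as log2 ratio of FPKM + 1, with HM in red and LM in blue and dashed lines at 2-fold. Names are given for genes past 2-fold, and Casp9 and Endog lie past the left line in HM, while Trp53, Foxo3 and Jun lie past the right line in both clones.

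Downstream of the mitochondrion, all 11 genes described here of the apoptosome, the caspases and the released proteins were expressed. With DFX, 0 were at least 2-fold higher in either clone, 2 were lower in HM and 1 in LM, with medians of −0.43 and −0.47. Over all expressed genes 12.4% were lower in HM and 8.72% in LM, so counts this small are near that background. Casp9, the caspase that the apoptosome activates, fell in HM (5.12 to 1.96) and had values of 5.09 and 2.66 in LM (log2 −0.73). Endog, a nuclease released from mitochondria, was the other gene past 2-fold in HM (FPKM 8.43 to 3.34, log2 −1.12), with 8.79 and 6.19 in LM. Aifm1, the apoptosis-inducing factor, was the one past 2-fold in LM (22.0 to 10.1, log2 −1.05), with 16.1 and 9.25 in HM. All 5 listed IAP genes, which restrain caspases, were expressed, and the one past 2-fold was Birc3, higher in HM with DFX (FPKM 2.46 to 6.78, log2 1.17), with 4.11 and 4.75 in LM. Over all expressed genes 6.93% were higher in HM, and a count of 1 is too small to be set apart from that share.

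In the death receptor arm 8 of 11 listed genes were expressed, 1 of which was past 2-fold higher in HM and 0 in LM, where 6.93% and 7.09% of all expressed genes were higher, so this count too is near the background. That gene was Fas, the receptor of Fas ligand, with an FPKM of 1.92 without and 4.99 with DFX in HM, and of 5.51 and 4.06 in LM. It rose in HM (log2 1.03), and the LM value was −0.36. The 10 genes for proteins that bind or turn over family members had 0 past 2-fold in either clone, Ywhaz being the most abundant (FPKM 140 to 257). The same held for the 3 outer membrane channels, led by Vdac1 (70.7 to 139). Among all expressed genes 12.4% were lower in HM and 8.72% in LM, so for lists this short a count of 0 is near the background.

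Of 10 transcription factors known to act on family genes, 8 were expressed. In HM 3 rose and 1 fell past 2-fold, and in LM 4 rose and 0 fell, with medians of 0.86 and 0.96. Among all expressed genes 6.93% were higher and 12.4% lower in HM, and 7.09% and 8.72% in LM, with medians of −0.10 and −0.04. These factors were listed with earlier results of these data known, so their counts and medians are not a test against these shares. Trp53, the gene of p53, went from an FPKM of 17.5 to 38.1 in HM and of 14.7 to 30.9 in LM. Foxo3, whose protein is known to drive Bbc3 and Bcl2l11, went from 8.03 to 29.8 in HM and from 3.99 to 19.1 in LM (log2 1.77 and 2.01). Jun went from 70.2 to 225 in HM and from 46.0 to 93.7 in LM, also past 2-fold in both. Ddit3, the gene of CHOP, had 79.8 and 148 in HM without and with DFX, and 6.05 and 111 in LM, so it rose past 2-fold in LM (log2 3.99) and the controls were far apart (log2 3.52). The RNA of Hif1a fell past 2-fold in HM (69.1 to 30.6, log2 −1.15), with 51.9 and 29.1 in LM (log2 −0.81). These are values of RNA. Whether p53 or the other proteins were made, and whether they worked in these clones, was not measured. Whether any of these factors acted on the members was not tested.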

How the data were processed

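RNA was measured in 4 single libraries, grouped by their labels, all of whose columns were used. Per the labels and methods, poly(A) RNA was selected, directional libraries were made and sequenced as pairs, and HISAT2 aligned the reads to mm10 after FastQC checks and Trimmomatic trimming. The processing notes also name featureCounts. The methods name Ensembl as the source of the transcriptome. Its release, the versions of the tools and the use of strand are not given in the sources used here. The authors deposited FPKM per gene, with no pooling.

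The coordinates of 45128 of 49585 genes equal GENCODE M21. With its exon lengths, 96.8% of 18236 such genes above 0 gave whole fragments in all 4 libraries (within 0.02), which gave the depth and the counting error. For Bad a length of 2007 bases was solved from its own values. Fold changes are log2 of the ratio of FPKM + 1 for genes that reached an FPKM of 1 in any library, and 2-fold was the call. The authors' edgeR analysis was not repeated, as 1 library per condition gives no spread. Shared words are 31 bases long, over GENCODE transcripts. Fold calling, the recovery of library totals and the interval of a ratio were tested on simulated counts without variation between cultures. The other steps were not. All members were named, with every other Bcl2 family gene, and from each other death list those past 2-fold in any comparison between 2 libraries or else the most abundant. Some genes of these lists are not reported here and were left out of their counts. Members and lists were chosen with earlier results of these data known. The promoters printed were chosen after the values were seen, from windows that held the marked letters. Alternatives were other pseudocounts, filters, scalings and thresholds, and ratios of fragments. Python 3.11.15, pandas 2.3.3, NumPy 2.4.6, SciPy 1.17.1 and matplotlib 3.10.9 were used.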

Additional observations from a re-analysis of the deposited data

Results flagged for a closer look

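Fas drew attention because its DFX response had opposite signs in the clones. Its FPKM without DFX was 1.92 in HM and 5.51 in LM, and with DFX 4.99 in HM and 4.06 in LM. The controls thus lay farther apart than the treated libraries. The log2 ratio of FPKM + 1 was 1.03 in HM and −0.36 in LM, a difference of 1.40, with 1 library per condition on each side. This difference was not tested.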

How the results depend on the processing

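Counts of members past the threshold kept their main value under most alternatives. At 1.5-fold, HM_Ctrl against LM_Ctrl gave 2 members higher (Bbc3 and Bcl2l11) and 1 lower (Bmf) in place of 0 and 0, DFX in HM gave 1 higher in place of 0, and the difference of responses gave 1 upward in place of 0. At 4-fold, DFX in HM gave 1 lower in place of 2, DFX in LM gave 0 higher in place of 1 and 0 lower in place of 2, HM_DFX against LM_DFX gave 0 lower in place of 1, and the difference of responses gave 0 downward in place of 1. The shares of all expressed genes past 1.5-fold and 4-fold were not computed, so these counts cannot be set against a background. Ratios of fragments gave 1 lower (Bmf) for HM_Ctrl against LM_Ctrl and 1 upward (Bmf) for the difference of responses, as did a pseudocount of 0.1 for the latter. A mean FPKM of at least 1 and median-ratio scaling each gave 1 lower in place of 2 for DFX in LM, where Bmf no longer counted. Of 180 recomputed log2 values for 9 members, 166 stayed within counting error of the main value and 14 moved further. The sign turned for 2 near 0: Bcl2l11 in the difference of responses (−0.03, and 0.04 with median-ratio scaling) and Bcl2 in HM_Ctrl against LM_Ctrl (−0.02, and 0.01 with scaling to the 75th percentile). No paired analysis was possible because each condition is 1 library. The variation between cultures, which 1 library per condition does not show, and the low fragment counts of Bmf limit these results. So does the overlap of Bid, Bad and Bak1 with opposite-strand genes, over 17.7% to 25.5% of their exon bases in GENCODE M21.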
